A study of Arabidopsis thaliana with 12 samples.

Results

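Ribosomes are built mainly in the nucleolus, where RNA polymerase I makes a long ribosomal RNA precursor. Small nucleolar ribonucleoproteins (snoRNPs) modify this precursor, and assembly factors cut it, fold it and load it with ribosomal proteins to give the 40S and 60S subunits. Assembly factors are not part of the finished ribosome, and dividing or growing root cells need them in quantity. The set described here holds 51 Arabidopsis genes for snoRNP proteins, ribosomal RNA processing factors and subunit assembly factors. A gene was measured when a probe set of the array named only that gene in the platform annotation, matched by locus or Entrez ID. This held for 20 of the 51 genes, of 13333 genes with a probe set of their own in the series, and each of the 20 had a single such probe set. The remaining 31 were not analysed here, among them both nucleolins, both fibrillarins and all 4 factors of 60S export and late cytoplasmic maturation on the list. The annotation named no gene for 8730 of 22746 probe sets, so the array may still carry some of these 31. The 20 genes need not stand for the 51. The measured genes cover 2 of 6 box C/D snoRNP genes, 2 of 5 H/ACA snoRNP genes, 7 of 18 genes of the small subunit processome and 40S assembly, and 9 of 16 genes of 60S assembly.

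The cells were protoplasts, which are cells freed of their walls, made from roots of Arabidopsis (ecotype Columbia). All of them, controls included, were transformed with ABI3-GR, a form of the seed transcription factor ABI3 that enters the nucleus when dexamethasone (DEX) is given. The 4 groups had 3 arrays each: 10 µM DEX with 35 µM cycloheximide (CHX), CHX alone, DEX alone, and neither. CHX stops translation, so the design separates responses to nuclear ABI3 that need new proteins from those that do not, and it also shows what CHX does by itself. Protoplasts without the construct were not analysed here, and nothing in the labels says that the 3 arrays of a group came from separate cultures or plants. The spread between arrays, on which every p-value rests, may therefore be technical.

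Values are deposited intensities on a linear scale, and changes are log2 differences of intensities floored at 16, fitted with limma on all 12 arrays. All arrays share a trimmed mean of 500, so a change is relative to the other transcripts, and fewer cells of a type cannot be told apart from less RNA per cell. Median intensity ran from 115.5 on replicate 1 of DEX with CHX to 220.8 on replicate 2 of DEX alone. Probe sets at the floor made up 2.84% on that array of DEX alone and 17.9% on replicate 2 of the untreated cells. They made up 15.8% and 13.8% on replicates 1 and 3 of DEX with CHX. Replicate 1 of CHX alone had weak hybridisation controls, with a geometric mean of 230.7, where the other arrays had 8733 to 15996. Of 16 root markers listed, 3 were measured. The root beta-glucosidase gene PYK10 was at 8.55 ± 0.11 with CHX alone, against 13.30 ± 0.21 in untreated cells (SD, n = 3 each, log2 intensity). The root hair genes EXPA7 and EXPA18 reached at most 121 and 125 in intensity on any array. The photosynthetic gene RCA, the 1 measured of 10 shoot markers, was at 7.16 ± 0.31 with CHX alone, against 8.34 ± 0.40 in untreated cells (SD, n = 3 each). PYK10 and RCA both fell with CHX (limma adjusted p = 2.51e-09 and 0.0128), and their part in the results that follow was not tested.

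Assembly genes changed in both directions with CHX. In cells without DEX, CHX raised 5 of the 20 genes and lowered 5, and the other 10 did not pass the test (limma, adjusted p under 0.05). Those that rose encode homologues of the yeast small subunit factors Rrp7, Imp4 and Mpp10 and the 60S factors PES and WDR12. Those that fell encode both measured H/ACA snoRNP proteins, a homologue of yeast Utp6, the helicase PRH75 and a homologue of yeast Nop53. Over all 22746 probe sets, 10.9% were higher and 16.1% were lower by the same rule. The members were brighter than the average probe set, at a mean log2 intensity of 8.43 against 7.53 in untreated cells. Without the 25% of probe sets of lowest mean, the shares were 14.8% and 22.3%, and that cut also removed the Utp6 homologue. The members' median log2 change was 0.26, from -2.18 to 1.81, with 11 genes above 0, and the median over all probe sets was -0.05. In 7 genes all 3 arrays with CHX lay above all 3 untreated arrays, which 16.2% of all probe sets showed, and in 7 they lay below, which 24.0% showed. The panels of single arrays show both kinds of gene side by side.

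**Figure D1:**
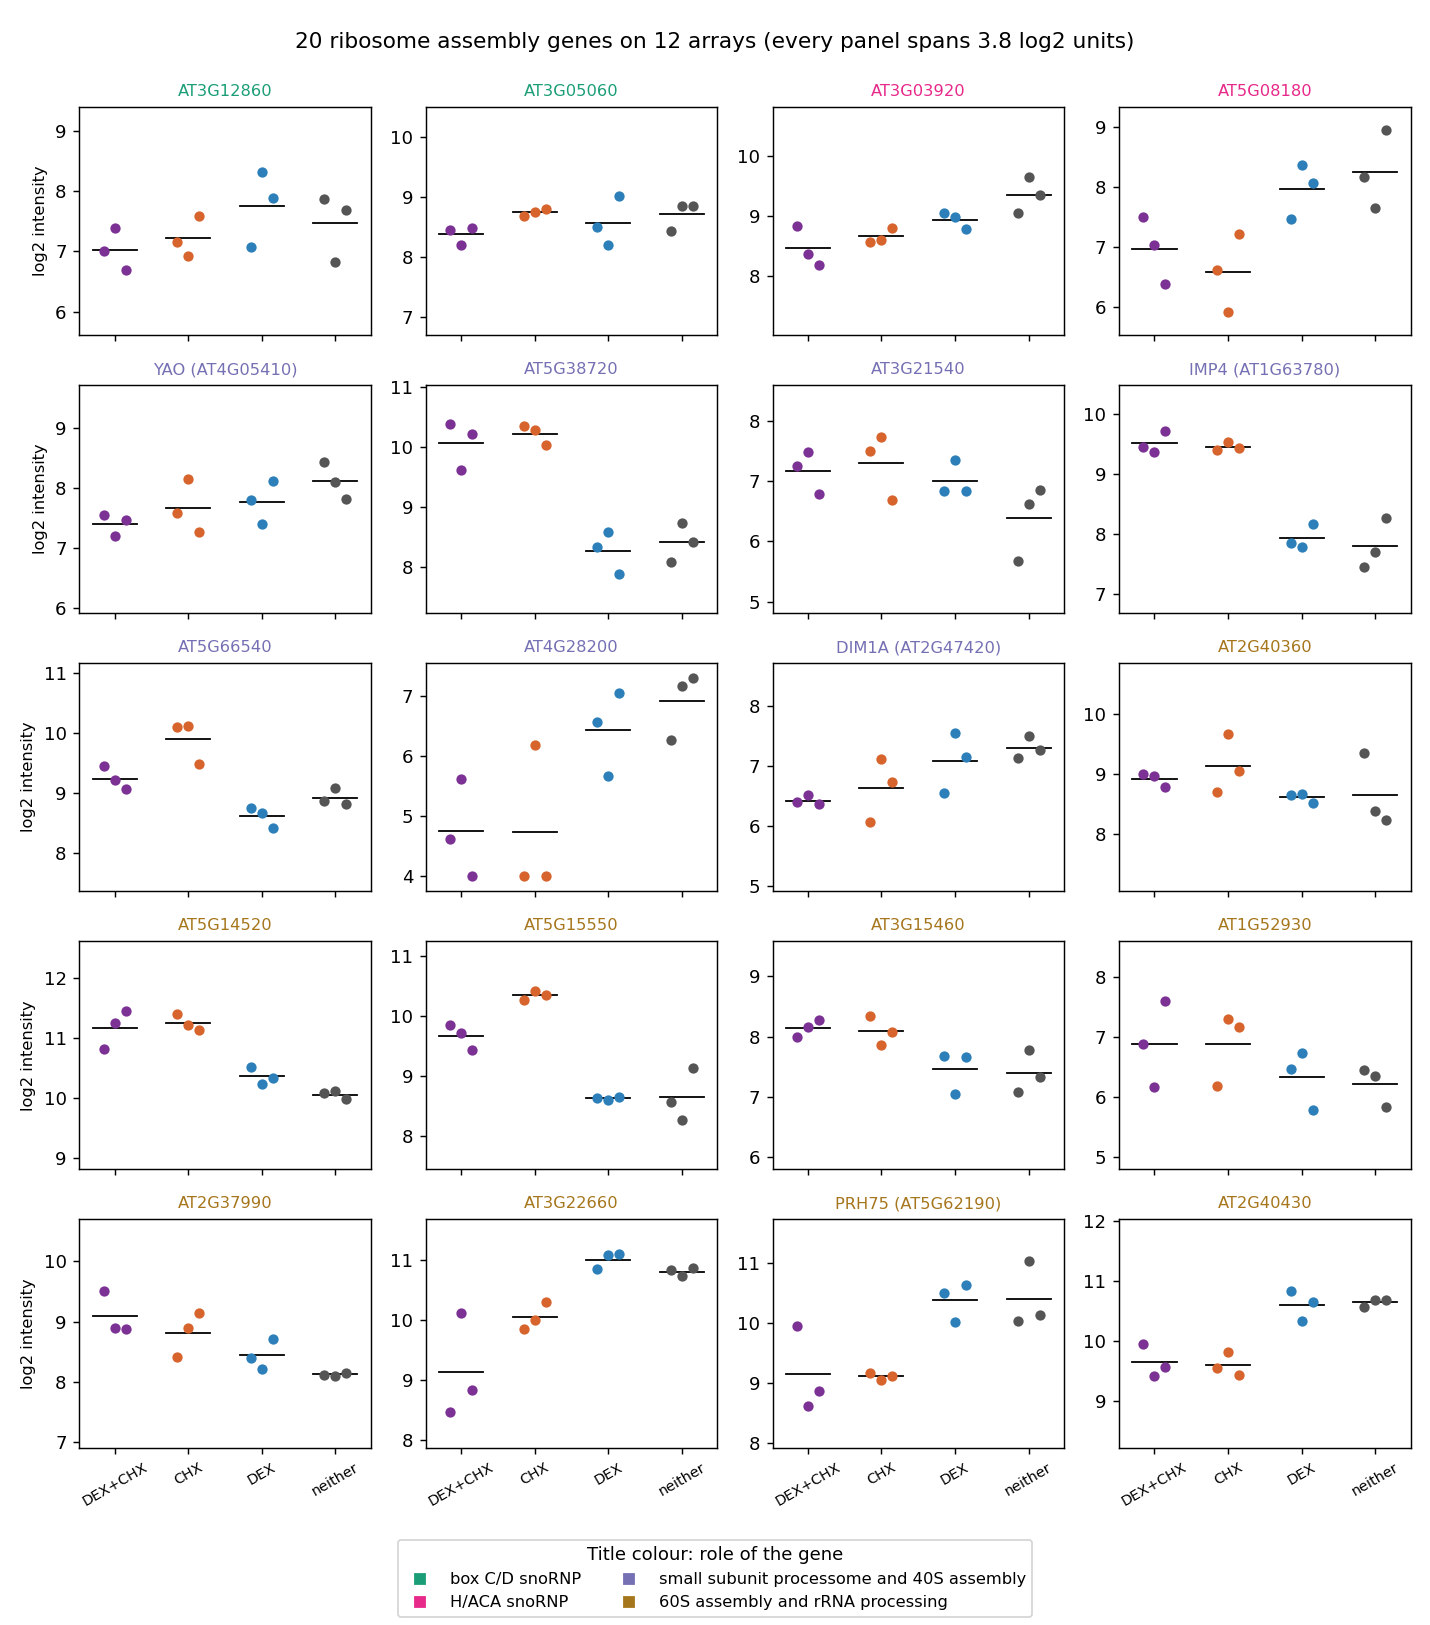
Log2 intensity (y axis) of the 20 measured ribosome assembly genes on each array (points) in cells with DEX+CHX, CHX, DEX or neither (x axis), with group means of 3 arrays as black lines; every panel spans the same number of log2 units and title colours give the gene's role. AT5G38720, IMP4, AT5G14520 and AT5G15550 sit higher in both groups with CHX, and AT2G40430 sits lower in both.

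The snoRNPs carry out most modifications of ribosomal RNA. Box C/D snoRNPs guide 2'-O-methylation, and H/ACA snoRNPs guide pseudouridine formation. AT3G12860 encodes a homologue of yeast Nop56, a core protein of box C/D particles. Its intensity was 143, 121 and 193 in cells with CHX alone, against 234, 113 and 207 in untreated cells. The groups overlapped, and the log2 change was -0.24 (SE 0.42; limma adjusted p = 0.77). AT3G05060 encodes a homologue of Nop58, the partner of Nop56 in the same particle. It was at 407, 428 and 446 with CHX alone, against 345, 461 and 462 in untreated cells, with a log2 change of 0.03 (SE 0.24; limma adjusted p = 0.967), the smallest of the 20.

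Both measured H/ACA genes fell, where 16.1% of all probe sets did. AT3G03920 encodes a homologue of yeast Gar1, a core protein of the H/ACA particle. It was at 382, 391 and 447 with CHX alone, against 534, 808 and 656 in untreated cells, and the groups did not overlap. The log2 change was -0.69 (SE 0.22; limma adjusted p = 0.0351). The call was lost without replicate 2 (-0.54) or 3 (-0.69) of the untreated cells or without replicate 1 (-0.65), 2 (-0.67) or 3 (-0.76) of CHX alone, and after quantile normalization (-0.45) or centring on medians (-0.56). With the replicate number as a block and without the variance trend the change stayed at -0.69 and also missed it (limma adjusted p = 0.0604 and 0.0588), so that 13 of 23 alternatives kept the call. AT5G08180 encodes a homologue of Nhp2, another core protein of the H/ACA particle. Its intensity was 99.1, 60.9 and 149 with CHX alone, against 287, 202 and 496 in untreated cells. Every array with CHX lay below every untreated one, a 3.17-fold fall (log2 change -1.67, SE 0.47; limma adjusted p = 0.0165). This call was lost without replicate 3 of the untreated cells (-1.32) or replicate 2 of CHX alone (-1.33).

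The small subunit processome is a large complex around the U3 snoRNA that forms on the precursor and cuts out the 18S rRNA. Of its 7 measured genes, 3 rose and 1 fell, beside 10.9% and 16.1% of all probe sets. AT5G38720 encodes a homologue of yeast Rrp7, a processome protein. Its intensity was 1308, 1252 and 1052 with CHX alone, against 272, 429 and 344 in untreated cells. All arrays with CHX stood above all untreated ones, a 3.50-fold rise (log2 change 1.81, SE 0.26; limma adjusted p = 0.000119), the largest rise of the 20.

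IMP4 and the Mpp10 homologue AT5G66540 act together in yeast, where Imp4, Imp3 and Mpp10 form a subcomplex of the processome. IMP4 was at 680, 745 and 693 with CHX alone, against 175, 209 and 308 in untreated cells. The arrays with CHX lay close together and far above the others, a 3.15-fold rise (log2 change 1.65, SE 0.24; limma adjusted p = 0.000129). AT5G66540 had 1095, 1105 and 709 with CHX alone, against 466, 541 and 449 in untreated cells. It rose 1.96-fold without overlap (log2 change 0.97, SE 0.21; limma adjusted p = 0.00341).

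The other 4 measured processome genes were 1 that fell and 3 that did not pass the test. AT4G28200 encodes a homologue of yeast Utp6, also a processome protein. It was at 12.4, 72.9 and 7.35 with CHX alone, against 77.0, 144 and 157 in untreated cells. Replicates 1 and 3 of CHX alone were under the floor of 16, so the size of the fall (log2 change -2.18, SE 0.68; limma adjusted p = 0.0299) depends on the floor. With a floor of 64 it was -0.85 and missed the threshold, as it did without replicate 2 (-2.05) or 3 (-1.99) of the untreated cells or replicate 1 (-1.82) or 3 (-1.82) of CHX alone. YAO, a homologue of the U3 snoRNA binding protein Rrp9 that is needed for gametes and embryos, had 192, 285 and 154 with CHX alone, against 345, 274 and 225 in untreated cells. The groups overlapped (log2 change -0.45, SE 0.33; limma adjusted p = 0.396).

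DIM1A, a dimethyltransferase of 18S rRNA, was at 67.4, 139 and 106 with CHX alone, against 141, 181 and 155 in untreated cells. Its arrays did not overlap, but the change of -0.67 (SE 0.41) missed the threshold (limma adjusted p = 0.305). AT3G21540, a homologue of yeast Utp12, had a change of 0.92 (SE 0.45) that also missed it (limma adjusted p = 0.169), with 183, 213 and 103 with CHX alone, against 51.3, 99.2 and 116 in untreated cells. The lowest array with CHX lay within the untreated range.

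Among the 9 genes of 60S assembly, 2 rose and 2 fell, which is 22.2% each way beside 10.9% and 16.1% of all probe sets. PES (AT5G14520), BOP1 (AT2G40360) and WDR12 (AT5G15550) homologues form the PeBoW complex, which acts in processing of the 5.8S and 25S rRNA. PES had 2709, 2381 and 2256 with CHX alone, against 1085, 1111 and 1016 in untreated cells. The groups were tight and separate, a 2.28-fold rise (log2 change 1.19, SE 0.17; limma adjusted p = 0.000124). The WDR12 homologue had 1233, 1367 and 1300 with CHX alone, against 380, 310 and 561 in untreated cells. It rose 3.21-fold (log2 change 1.68, SE 0.21) and had the smallest adjusted p of the 20 genes (limma adjusted p = 4.56e-05).

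The BOP1 homologue, by contrast, had 414, 813 and 533 with CHX alone, against 652, 334 and 301 in untreated cells. Its groups overlapped, and the change of 0.49 (SE 0.30) missed the threshold (limma adjusted p = 0.307). Without replicate 1 of the untreated cells, the one at 652, it was 0.83 and passed (limma adjusted p = 0.0445). A test of the difference between the 3 subunit genes was not made, since probe sets are not compared with each other.

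AT3G15460 and AT1G52930 are paralogues that encode homologues of yeast Brx1, a factor of 60S assembly. AT3G15460 was at 323, 233 and 269 with CHX alone, against 135, 218 and 161 in untreated cells, without overlap (log2 change 0.70, SE 0.30; limma adjusted p = 0.117). AT1G52930 was at 72.2, 157 and 144 with CHX alone, against 87.4, 81.1 and 57.1 in untreated cells, and the groups overlapped (log2 change 0.67, SE 0.51; limma adjusted p = 0.421). The estimates of the paralogues were close, and neither passed. AT2G37990, a homologue of Rrs1, which brings the 5S rRNA particle to the 60S precursor in yeast, had 339, 475 and 567 with CHX alone, against 278, 273 and 284 in untreated cells. All arrays with CHX were higher (log2 change 0.69, SE 0.26; limma adjusted p = 0.0636), and the change passed without replicate 1 of CHX alone (0.90) and after quantile normalization (0.93).

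PRH75, a DEAD-box RNA helicase of the nucleolus, was at 575, 532 and 552 with CHX alone, against 1039, 2084 and 1125 in untreated cells. It fell 2.44-fold without overlap (log2 change -1.28, SE 0.34; limma adjusted p = 0.0114). Replicate 2 of the untreated cells stood well above the other untreated arrays, and without it the change was -0.97 and missed the threshold. Centring on medians, with a change of -1.15, also lost the call (limma adjusted p = 0.0594). AT2G40430 encodes a homologue of yeast Nop53, which brings the exosome to the 60S precursor. It was at 752, 902 and 695 with CHX alone, against 1516, 1654 and 1651 in untreated cells, a 2.06-fold fall with tight groups (log2 change -1.04, SE 0.18; limma adjusted p = 0.000725). AT3G22660, a homologue of yeast Ebp2, had 924, 1019 and 1266 with CHX alone, against 1813, 1694 and 1874 in untreated cells. Its arrays did not overlap, and the change of -0.76 (SE 0.32) missed the threshold (limma adjusted p = 0.111). Without replicate 2 of the cells given both treatments, which adds to its estimate of the spread, the same change passed (limma adjusted p = 0.004).

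The number of genes that fell depended on single arrays. It was 2 without replicate 2 or 3 of the untreated cells and 3 without replicate 1, 2 or 3 of CHX alone. It was also 3 with arrays centred on their medians, where 12.1% of all probe sets were lower. The number that rose was 5 or 6 with any 1 array left out. All 5 genes that rose passed in each of the 23 alternatives tried, and of the genes that fell only AT2G40430 did. Without the 2 arrays of lowest weight (replicate 2 of the untreated cells and replicate 2 of both treatments), 5 rose and 4 fell. In that fit 10.3% of all probe sets were higher and 15.9% lower. A 3' to 5' ratio of ubiquitin control probe sets, which rises when RNA is degraded or labelled short, was 3.92, 3.95 and 3.89 with CHX alone, against 6.22, 5.27 and 5.35 in untreated cells. These groups did not overlap. Another ubiquitin ratio was 6.10, 5.57 and 5.08 with CHX alone, against 6.26, 7.58 and 6.28 in untreated cells, and the GAPDH ratio was 2.19, 2.19 and 2.30 with CHX alone, against 3.34, 2.49 and 4.17 in untreated cells. Both were lower with CHX on every array, while the actin ratio, at 5.77, 16.6 and 5.66 with CHX alone against 5.37, 8.38 and 9.24 in untreated cells, overlapped. The part of these shifts in the changes was not tested.

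The same question was asked in cells that had also received DEX, on 6 arrays that the first comparison did not use. CHX raised 5 of the 20 genes and lowered 3 (limma), where 10.6% of all probe sets were higher and 20.4% lower. All 5 genes that rose without DEX rose here too. Over all probe sets, 80.1% of those higher without DEX were also higher with it. Of the 5 that fell without DEX, 2 fell here as well (PRH75 and AT2G40430), and 82.0% of all probe sets lower without DEX were also lower with it. The sign of the change was the same in 19 of 20 genes, against 69.8% of all probe sets. AT3G05060, with a change of 0.03 without DEX and -0.18 with it, was the exception. In 8 genes all arrays with both treatments lay above those with DEX alone, beside 13.2% of all probe sets, and in 5 they lay below, beside 27.5%. The spread per probe set is estimated from all 12 arrays in both comparisons, so their calls are not fully independent.

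**Figure D2:**
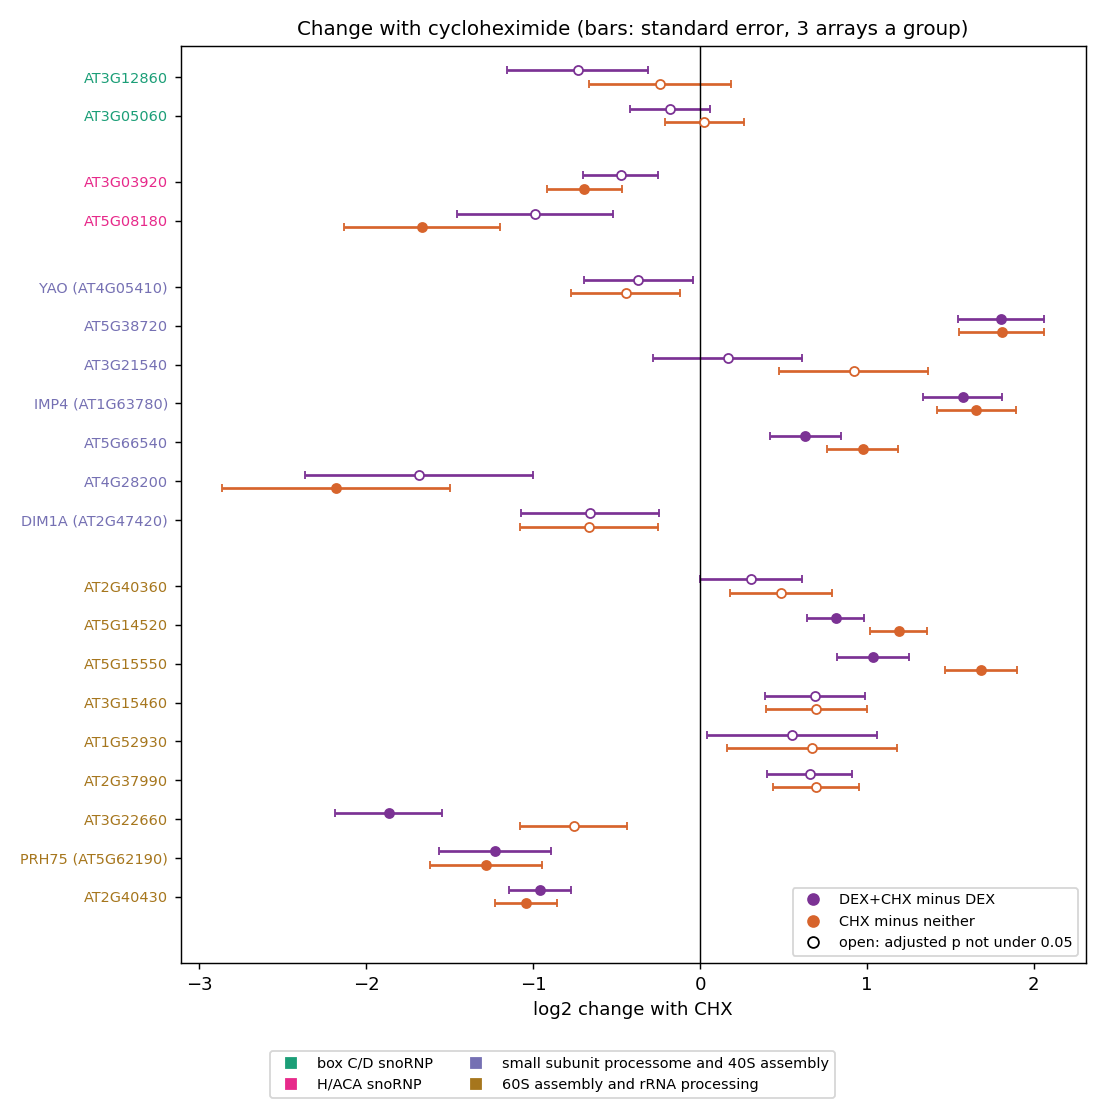
Log2 change with CHX (x axis; bars are standard errors, 3 arrays a group) for each of the 20 genes (y axis, coloured by role), in cells with DEX (DEX+CHX minus DEX) and without it (CHX minus neither). Filled points passed limma's adjusted p of 0.05; AT5G38720, IMP4, AT5G66540, AT5G14520 and AT5G15550 are filled above 0 in both comparisons, and PRH75 and AT2G40430 below 0.

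For the Rrp7 homologue AT5G38720 the arrays with both treatments had 1338, 789 and 1189, against 324, 385 and 237 with DEX alone. The change of 1.80 (SE 0.26; limma adjusted p = 0.000122) was close to that without DEX. IMP4 was at 698, 663 and 848 with both, against 232, 221 and 289 with DEX alone (log2 change 1.57, SE 0.24; limma adjusted p = 0.000191). Both genes kept separate groups with the same size of rise. AT5G66540, the Mpp10 homologue, was at 694, 592 and 533 with both, against 427, 407 and 340 with DEX alone. Its rise of 0.63 (SE 0.21; limma adjusted p = 0.0393) was lost without replicate 1 (0.70), 2 (0.66) or 3 (0.53) of DEX alone or replicate 1 (0.53) or 2 (0.64) of both treatments. It was also lost with array weights (0.63), and without the variance trend or with only the arrays compared, where the size was the same (limma adjusted p = 0.072 and 0.061).

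PES was at 1818, 2455 and 2791 with both treatments, against 1471, 1212 and 1291 with DEX alone, a 1.76-fold rise (log2 change 0.81, SE 0.17; limma adjusted p = 0.00241). The WDR12 homologue AT5G15550 was at 924, 839 and 695 with both, against 399, 388 and 404 with DEX alone, a 2.05-fold rise (log2 change 1.04, SE 0.21; limma adjusted p = 0.00219). Neither pair of groups overlapped. The BOP1 homologue AT2G40360 had 510, 502 and 443 with both, against 403, 406 and 366 with DEX alone. Here its groups were also separate, but the change of 0.31 (SE 0.30) did not pass (limma adjusted p = 0.488).

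Among the 3 genes that fell with DEX present, the Ebp2 homologue AT3G22660 changed most. It had 353, 1117 and 455 with both treatments, against 1840, 2165 and 2182 with DEX alone. Replicate 2 of both treatments stood well above the other 2 arrays of its group, yet below every array with DEX alone. The fall was 3.64-fold (log2 change -1.87, SE 0.32; limma adjusted p = 0.000586). PRH75 had 989, 393 and 464 with both, against 1437, 1027 and 1573 with DEX alone (log2 change -1.23, SE 0.34; limma adjusted p = 0.0138). Without replicate 3 of DEX alone (-1.10), or replicate 2 (-0.97) or 3 (-1.09) of both, it missed the threshold. AT2G40430 had 989, 688 and 758 with both, against 1823, 1290 and 1607 with DEX alone (log2 change -0.96, SE 0.18; limma adjusted p = 0.00137). Both of these calls were lost after centring on medians, where PRH75 was at -0.74 and AT2G40430 at -0.47.

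The H/ACA genes AT3G03920 (-0.48, SE 0.22) and AT5G08180 (-0.99, SE 0.47) were below 0 in log2 change and did not pass in cells with DEX (limma adjusted p = 0.131 and 0.132). AT4G28200 had 24.6, 49.3 and 7.04 with both, against 94.7, 50.8 and 133 with DEX alone, without overlap (log2 change -1.68, SE 0.68; limma adjusted p = 0.0821). Without replicate 2 of CHX alone (-1.68) or replicate 2 of both (-2.12) it passed. The paralogues AT3G15460 (0.69, SE 0.30) and AT1G52930 (0.55, SE 0.51) did not pass, and AT3G15460 passed after quantile normalization (1.23) and centring (1.18). AT2G37990 did the same, at 0.66 (SE 0.26) as deposited, 1.04 after quantile normalization and 1.15 after centring. The remaining changes were -0.73 for AT3G12860, -0.37 for YAO, 0.16 for AT3G21540 and -0.66 for DIM1A, none past the threshold.

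Scaling had a larger hold on this comparison than on the first. Over all probe sets the median change was -0.46 as deposited, 0.03 with centring on medians and -0.04 with quantile normalization. The members' median was -0.01 as deposited, 0.48 with centring and 0.46 with quantile normalization. Relative to the median of all probe sets it was 0.46 as deposited, 0.46 with centring and 0.50 with quantile normalization. Without DEX, these differences were 0.31, 0.31 and 0.50. Of all calls in cells with DEX, 34.2% were higher as deposited, 59.0% with centring and 48.5% with quantile normalization. With centring, 7 members rose and 1 fell, where 14.3% of all probe sets were higher and 9.94% lower. The same ubiquitin ratio was 7.78, 4.86 and 8.59 with both treatments, against 5.46, 5.02 and 4.90 with DEX alone. Replicates 1 and 3 of both treatments were above all arrays with DEX alone and replicate 2 was below them. The other ubiquitin ratio, the GAPDH ratio and the actin ratio overlapped between these groups, and the part of the ratios was not tested.

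Nuclear entry of ABI3 was asked about next. DEX changed none of the 20 genes past the threshold in either setting. Without CHX, 0 of 20 were higher and 0 lower in limma, where 0.0132% and 0.0% of all probe sets were. An unadjusted limma p under 0.05 was found for 0 of the 20, beside 1461 of all 22746 probe sets. The changes ran from -0.48 for AT4G28200 to 0.62 for AT3G21540, with a median of -0.03, against 0.10 over all probe sets. The smallest adjusted p was 0.827, that of AT3G03920 in limma. It had 530, 511 and 442 with DEX alone, against 534, 808 and 656 in untreated cells, so that all 3 arrays with DEX were lower (log2 change -0.41, SE 0.22). PES went the other way, with 1471, 1212 and 1291 with DEX alone, against 1085, 1111 and 1016 in untreated cells (log2 change 0.30, SE 0.17; limma adjusted p = 0.837). In all, 2 genes had all arrays with DEX above and 2 below, where 6.87% and 4.69% of all probe sets did.

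With CHX, 0 of 20 were higher and 0 lower in limma, against 0.255% and 0.0176% of all probe sets. An unadjusted limma p under 0.05 was found for 3 of the 20, all of them lower. Over all 22746 probe sets 1781 had one, of which 599 were higher. The WDR12 homologue AT5G15550 had 924, 839 and 695 with both treatments, against 1233, 1367 and 1300 with CHX alone. The groups were separate (log2 change -0.67, SE 0.21; limma adjusted p = 0.414). AT5G66540 had 694, 592 and 533 with both, against 1095, 1105 and 709 with CHX alone (log2 change -0.66, SE 0.21; limma adjusted p = 0.435). AT3G22660 had 353, 1117 and 455 with both, against 924, 1019 and 1266 with CHX alone, and these groups overlapped through replicate 2 of both treatments (log2 change -0.91, SE 0.32; limma adjusted p = 0.496). Without that array its change was -1.40 and passed (limma adjusted p = 0.00814). The share of all probe sets called lower also rose then, from 0.0176% to 0.189%. No gene had all arrays with both treatments above those with CHX alone, beside 4.26% of all probe sets, and 3 had them all below, beside 7.68%. The members' median was -0.14, against -0.12 over all probe sets. With standard errors of 0.17 to 0.68, a miss of the threshold does not show that the genes did not respond.

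**Figure D3:**
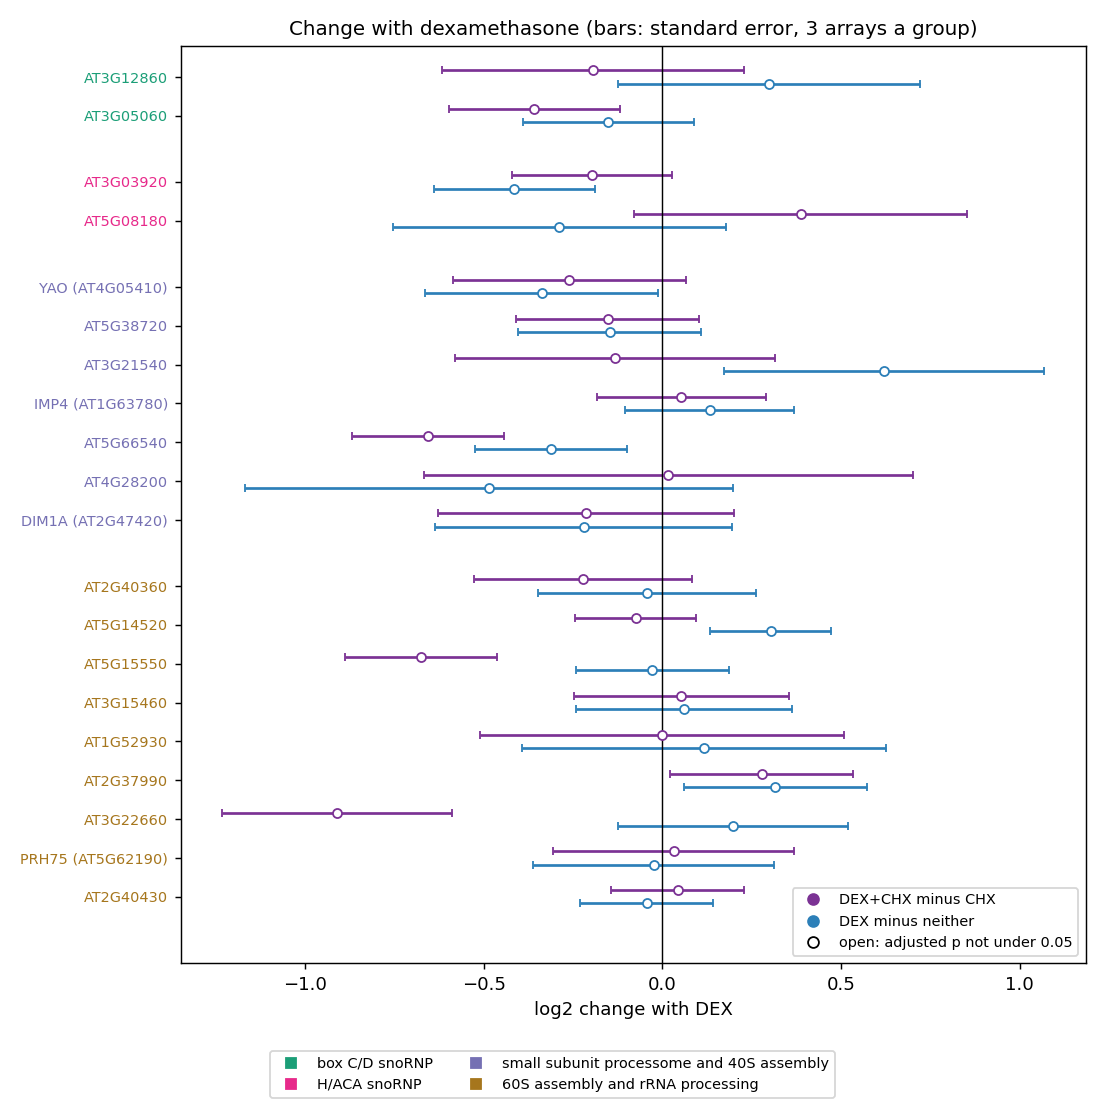
Log2 change with DEX (x axis; bars are standard errors, 3 arrays a group) for each of the 20 genes (y axis, coloured by role), in cells with CHX (DEX+CHX minus CHX) and without it (DEX minus neither). All points are open, since none passed limma's adjusted p of 0.05; AT3G22660 with CHX lies farthest from 0, at -0.91.

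The interaction, which tests whether the DEX effect differed with CHX and equally whether the CHX effect differed with DEX, passed for 0 of 20 genes in limma, where 0.0044% of all probe sets were higher and 0.0% lower. The furthest from 0 was that of AT3G22660 (-1.11, SE 0.46, limma adjusted p = 0.593). It was the 1 gene of the 20 with an unadjusted limma p under 0.05, beside 1814 of all 22746 probe sets. The WDR12 homologue AT5G15550 was at -0.65 (SE 0.30; limma adjusted p = 0.622) and PES at -0.38 (SE 0.24; limma adjusted p = 0.685). For AT5G38720 (-0.0049, SE 0.36), IMP4 (-0.08, SE 0.33) and PRH75 (0.06, SE 0.48) the estimate was close to 0. The median over members was -0.06, and -0.22 over all probe sets.

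Within groups, the genes did not deviate together. After group means were removed, the correlation between 2 members across the 12 arrays had a median of 0.028 over 190 pairs, and its mean was 0.019, against 0.052 over all pairs of probe sets. These values share the arrays and their scaling and are given as a description.

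The wider pathway was described with other lists, written with earlier results of these data known. The first holds 47 further ribosome assembly genes, of which 37 were measured. CHX without DEX raised 16 and lowered 3 of them, which is 43.2% and 8.11% of the list, beside 10.9% and 16.1% of all probe sets. The median change was 0.64, with 27 of 37 above 0, beside 47.3% of all probe sets. AT1G79150, a homologue of yeast Noc3, had the largest change by the probe sets used, at 9.56 ± 0.11 with CHX alone against 7.23 ± 0.26 in untreated cells (SD, n = 3 each; log2 change 2.33, SE 0.23; limma adjusted p = 5.08e-06). This is the brighter of its 2 probe sets. The other one of AT1G79150 had a change of 0.91 (SE 0.36) and missed the threshold (limma adjusted p = 0.0888). The processome genes AT3G10530 and AT4G04940, homologues of yeast Utp7 and Utp21, both rose by 1.75 (SE 0.22 and 0.33; limma adjusted p = 3.93e-05 and 0.0013). AT3G22980 went the other way, to 6.26 ± 0.20 with CHX alone against 8.02 ± 0.18 in untreated cells (SD, n = 3 each; log2 change -1.76, SE 0.45; limma adjusted p = 0.00971). Its yeast homologue Efl1 acts late, on 60S subunits in the cytoplasm. With DEX present, CHX raised 13 and lowered 2 of the 37, beside 10.6% and 20.4% of all probe sets.

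**Figure D4:**
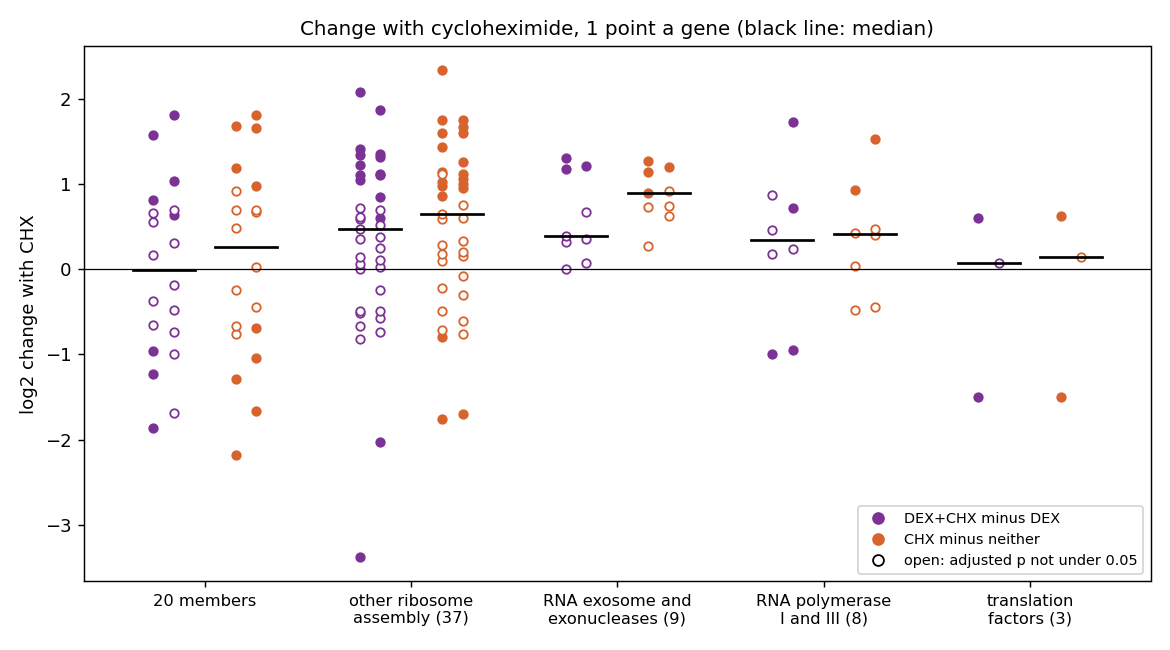
Log2 change with CHX (y axis) of each gene (points) in the 20 members and in 4 further lists (x axis, with the number measured), in cells with DEX and without it; filled points passed limma's adjusted p of 0.05 and black lines are medians. Members spread on both sides of 0, while 27 of 37 other assembly genes lie above 0 in each comparison. Of all probe sets, 47.3% were above 0 without DEX and 32.1% with it.

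Of 9 measured genes for the RNA exosome and nuclear exonucleases, which trim ribosomal RNA precursors from their ends, 4 rose without DEX and none fell, beside 10.9% and 16.1% of all probe sets. All 9 had changes above 0, beside 47.3% of all probe sets. AT5G35910, an Rrp6-like exonuclease gene, rose by 1.26 (SE 0.26; limma adjusted p = 0.00223), AT2G25355, for the cap protein Rrp40, by 1.20 (SE 0.36; limma adjusted p = 0.0259), RRP41, for a ring subunit, by 1.13 (SE 0.30; limma adjusted p = 0.0111) and AT1G54440, another Rrp6-like gene, by 0.89 (SE 0.27; limma adjusted p = 0.0251). Only 2 rose without replicate 2 of the untreated cells or without replicate 2 or 3 of CHX alone. With DEX present 3 rose and none fell, beside 10.6% and 20.4% of all probe sets. Of 8 genes for RNA polymerase I and III, 2 rose without DEX: AT1G75670, for the polymerase I subunit A43 (1.53, SE 0.38; limma adjusted p = 0.00869), and AT3G13940, for A49 (0.93, SE 0.23; limma adjusted p = 0.00709). None fell, and the shares of all probe sets were 10.9% higher and 16.1% lower. With DEX present 2 rose and 2 fell, that is 25% each way, beside 10.6% and 20.4% of all probe sets. Without replicate 3 of DEX alone 1 rose and none fell; 1 rose without replicate 1 of DEX alone or replicate 1 or 3 of both, and 1 fell without replicate 2 of DEX alone or replicate 3 of both.

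Only 3 of 27 translation factor genes were measured. EIF4A-2, a helicase of translation initiation, fell by 1.49 without DEX (SE 0.23; limma adjusted p = 0.000251), and AT1G76810, for initiation factor eIF5B, rose by 0.63 (SE 0.19; limma adjusted p = 0.028). The eIF5B call was lost without replicate 1, 2 or 3 of the untreated cells or replicate 2 or 3 of CHX alone, each of which left 0 translation factor genes higher. None of the 5 listed genes for nucleolar histone deacetylases and the nucleolar stress regulator NAC082 was measured. DEX changed no gene of these lists past the threshold in limma in either setting. The numbers with an unadjusted limma p under 0.05 among the 37 further assembly genes were 1 without CHX and 2 with it. Over all 22746 probe sets these numbers were 1461 and 1781.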

How the data were processed

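Biotin-labelled RNA from each sample was read on 1 Affymetrix array of 22810 probe sets, and the labels name a NuGEN kit for labelling. The deposited file gives linear intensity. Each array had a mean of 500 once 2% of values were trimmed at either end, as read from the values. The program used and any detection calls are not given in the sources used here. Without the 64 controls, 22746 probe sets were tested, as log2 of the deposited intensity with values under 16 set to 16.

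The platform annotation used here named 1 gene for 13513 probe sets, several for 503 and none for 8730, and 13436 of the 13513 matched a TAIR10.1 gene by Entrez ID. Sequences were not used.

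A model of 4 group means was fitted to the 12 arrays in R 4.3.3 by lmFit and eBayes (variance trend on) of limma 3.58.1. It gave CHX without and with DEX, DEX without and with CHX, and the interaction. The Benjamini-Hochberg adjustment ran over every probe set tested, and the threshold was an adjusted p of 0.05. SDs are over 3 arrays, whose number limits the precision. The fit was tested on simulated data. The members and the lists were chosen with earlier results of these data known, and nothing was adjusted over a list alone. The rule for named members took those of highest mean and largest or smallest change in each role, paralogue pairs and exceptions in direction, and the remaining members were added. From each further list, up to 4 genes past the threshold for CHX without DEX are named, by size of change. Alternatives are given in the closing section. Other steps ran in Python 3.11.15, using pandas 2.3.3 for tables and matplotlib 3.10.9 for plots.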

Additional observations from a re-analysis of the deposited data

How the results depend on the processing

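No called change of a member turned sign in any of the 23 alternatives. With array weights 7 members rose and 6 fell for CHX without DEX, with AT3G15460, AT2G37990 and AT3G22660 added. The shares of all probe sets were 12.2% higher and 19.3% lower with these weights. Quantile normalization gave 6 and 4, with AT2G37990 added and AT3G03920 lost, beside 12.6% and 14.7% of all probe sets. For CHX with DEX, AT5G66540 was lost without the variance trend, with array weights and with only the arrays compared, which left 4 higher each time. In these fits 10%, 10.5% and 9.23% of all probe sets were higher. Quantile normalization and centring gave 7 higher, beside 14.1% and 14.3% of all probe sets. Larger shifts of counts, and of medians, were these. With centring on medians, the members lower with CHX numbered 3 without DEX and 1 with it, the members' median change was 0.39 for CHX without DEX, 0.48 for CHX with DEX, -0.23 for DEX alone, 0.0156 for DEX in the presence of CHX and 0.30 for the interaction, 0 translation factors rose with CHX without DEX and 0 polymerase genes fell with CHX in cells with DEX. With quantile normalization these medians were 0.48 and 0.46 for CHX without and with DEX and 0.0628 for the interaction, and 1 polymerase gene fell with CHX in cells with DEX. Leaving out the 25% of probe sets of lowest mean removed 1 member, AT4G28200, and gave medians of 0.49 and 0.16 for CHX. Of the probe sets kept, 14.8% were higher and 22.3% lower without DEX, and 14.4% and 27.6% with it. A floor of 64 gave 1 polymerase gene lower with CHX without DEX. Without the variance trend 0 translation factors rose in either CHX comparison. Fitting only the arrays compared gave, for CHX with DEX, 1 polymerase gene higher, 1 lower and 0 translation factors higher. Without the 2 arrays of lowest weight, chosen after seeing the data, 1 member was lower for DEX with CHX, where 1.26% of all probe sets were. In that fit 0 translation factors rose with CHX without DEX.

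With each array left out in turn, the members higher and lower with CHX numbered 5 to 6 and 2 to 6 without DEX (median 0.12 to 0.32) and 4 to 5 and 2 to 4 with DEX (median -0.07 to 0.06). The further assembly genes numbered 13 to 17 and 3 to 4 without DEX and 11 to 13 and 2 to 3 with DEX, the exosome genes higher 2 to 4 and 2 to 3, the polymerase genes 2 higher without DEX and 1 to 3 higher and 0 to 2 lower with it, and the translation factors higher 0 to 1 in both. Of all probe sets, CHX raised 9.23% to 11% and lowered 13.2% to 17% without DEX in these fits. With DEX the shares were 9.39% to 10.9% and 16% to 24.4%. For DEX, 0 members were called without CHX (median -0.09 to 0.00) and 0 to 1 lower with it (median -0.23 to -0.0063), and for the interaction 0 (median -0.24 to 0.0257). The 1 lower call came without replicate 2 of both treatments, where 0.189% of all probe sets were lower. Same-numbered arrays of different groups did not deviate together (correlations of -0.439 to 0.294, over 0.1 in 4 of 18 pairs). With 3 arrays a group and signal that differed between whole arrays, this cannot decide whether the numbers pair the samples. With the replicate number as a block, 5 members were higher and 4 lower for CHX without DEX (AT3G03920 was lost), and 5 and 3 with DEX. The shares of all probe sets with this block were 10.4% and 15.1% without DEX and 10.1% and 18.7% with it. The number of arrays and the weak signal of some probe sets limit what can be seen.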

Other observations

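The arrays also carry control probe sets for ribosomal RNA itself, the substrate of these factors, which no comparison above uses. The 25S rRNA probe set had intensities of 38390, 41956 and 44339 with both treatments, 43752, 41234 and 38487 with CHX alone, 41808, 42230 and 43707 with DEX alone and 52364, 39414 and 45558 with neither. The groups overlapped. The 5S rRNA probe set had 697, 4838 and 2391 with both, 3376, 5085 and 7130 with CHX alone, 3427, 9239 and 4710 with DEX alone and 3582, 674 and 6072 with neither, and spread more within groups than between them. Labelling of RNA without a poly(A) tail was not tested, so these are not levels of rRNA in the cells.

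AT5G27120, a member that encodes a homologue of yeast Nop58, shares its probe set with AT5G27140 and was not counted among the 20. That probe set had 111 and 115 on 2 arrays with both treatments, 36.8, 75.0 and 87.7 with CHX alone, 130 on 1 array with DEX alone and 98.8, 176 and 72.6 with neither. The other arrays, replicate 1 of both treatments and replicates 2 and 3 of DEX alone, were under the floor of 16.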
